A study of Mus musculus with 8 samples.

Results

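The genes followed here are 6 that neutrophils transcribe strongly (S100a8, S100a9, Csf3r, Cxcr2, Retnlg and Mmp9) and 4 that encode signals which recruit neutrophils or expand their number (Cxcl1, Cxcl2, Cxcl5 and Csf3). They were taken by symbol from the authors' normalized table and joined by Ensembl identifier to the deposited counts. All 10 were found among the 55536 counted genes, and 9 had enough counts to be among the 15998 genes tested, Csf3 being left out. Tumors were grown from HCA-1, a single mouse hepatocellular carcinoma line, implanted into the livers of male C3H mice, whose age is 6 to 8 weeks in the sample labels and 4 to 6 weeks in the methods. On day 17 the mice received 1 intravenous dose of either saline (4 tumors, replicate numbers 1, 3, 4 and 5) or PFSUV-IMQ at 4 mg per kg (4 tumors, replicate numbers 1, 2, 3 and 4), and RNA was taken from whole tumors 3 h later. PFSUV-IMQ is imiquimod, a small-molecule agonist of the endosomal receptor TLR7, loaded into phospholipid-free small unilamellar vesicles. The saline group carried no empty vesicles, so the vesicle and its cargo cannot be told apart. In whole-tumor RNA, a change in the number of neutrophils and a change in the RNA of each neutrophil cannot be told apart either.

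Neutrophils are short-lived phagocytes that leave the blood along gradients of CXC chemokines carrying a Glu-Leu-Arg (ELR) motif. In the mouse these ligands include Cxcl1, Cxcl2 and Cxcl5, they lie in a cluster of related genes on chromosome 5, and they signal through the receptor encoded by Cxcr2. Csf3 encodes granulocyte colony-stimulating factor, which drives granulocyte production through the receptor encoded by Csf3r. Ligand genes of this kind are transcribed by stromal, endothelial, epithelial and myeloid cells within hours of TLR, IL-1 or TNF signaling, largely through NF-κB.

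Totals per tumor were 16883911 to 27687756 counts after saline and 17008151 to 18527613 after PFSUV-IMQ. A gene at or under 3 counts in a tumor was treated as at the floor, which equaled 0.105 to 0.21 CPM. CPM here are counts scaled by the TMM-adjusted library size, and the floor of 3 counts covers counting error only. The PFSUV-IMQ tumor with replicate number 2 stood apart: it was the highest tumor of its group for 34.8% of all tested genes and had the largest mitochondrial share, 6.65% of counts against 1.37 to 5.22% in the other 7. Its summed level of 8 hepatocyte markers, 37275.7 CPM, exceeded the 6951.3 to 9812.3 CPM of its group, and among the saline tumors replicate 4 had 34645.0 CPM against 4521.7 to 14130.8 CPM. Estimates of the 10 genes that this tumor moved strongly are also given without it. Nothing in the sources used here ties a tumor to a batch or says outright that each came from its own animal, and p-values measure only the spread between these tumors.

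None of the 9 tested genes was called changed, where a call needed an adjusted p under 0.05 from edgeR's quasi-likelihood test and a log2 fold change (log2 change hereafter) larger than 1 in either direction. The same rule called 2.46% of all tested genes, 2.26% as higher and 0.200% as lower. At an unadjusted p under 0.05, 3 of the 9 were higher after PFSUV-IMQ (Retnlg, Cxcl1 and Cxcl2), against 8.34% of all tested genes, and none was lower, against 4.65%. The Wald test of DESeq2 called 2 of the 10 higher, Cxcl1 and Cxcl2. In either direction it called 3.82% of the genes to which it gave an adjusted p, 618 genes as higher and 133 as lower. The estimates were above 0 for 8 of the 9, with a median log2 change of 1.16, against 46.0% of all tested genes and a median of -0.03. Without PFSUV-IMQ replicate 2 each of the 9 estimates was lower, from -0.39 for Cxcl5 to 1.38 for Retnlg. Those of Csf3r (-0.16) and Mmp9 (-0.01) then fell below 0. In 2 genes, Cxcl2 and Retnlg, all treated tumors lay above all saline tumors, which held for 6.00% of all tested genes, and in none did all lie below, which held for 3.28%. The plot of CPM by tumor shows how much of each mean rested on single tumors.

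**Figure D1:**
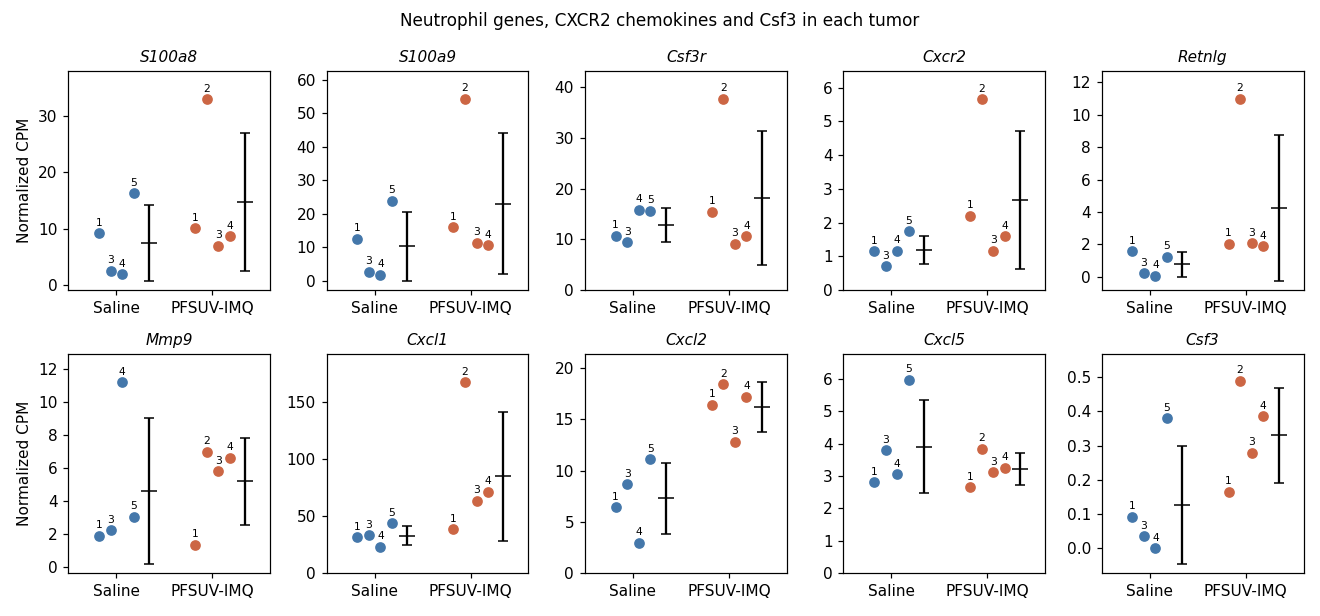
Normalized CPM (vertical axes, linear, a separate scale for each gene) of the 10 genes in the 4 saline tumors (blue) and the 4 PFSUV-IMQ tumors (orange), each point labeled with its replicate number, with the mean and SD of each group as bars to the right. PFSUV-IMQ replicate 2 was highest of all 8 tumors for S100a8, S100a9, Csf3r, Cxcr2, Retnlg, Cxcl1, Cxcl2 and Csf3, and only Cxcl2 and Retnlg had groups that did not overlap.

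S100a8 and S100a9 encode the subunits of calprotectin, a calcium-binding protein that makes up much of the neutrophil cytosol and is also made by monocytes. The genes lie on chromosome 3 of GRCm38, S100a8 from 90668978 to 90670035 and S100a9 from 90692632 to 90695721. S100a8 stood at 9.17, 2.46, 1.89 and 16.3 CPM in saline replicates 1, 3, 4 and 5, and at 10.1, 33.0, 6.97 and 8.66 CPM in PFSUV-IMQ replicates 1 to 4. S100a9 ranked the saline tumors in the same order, with 12.6, 2.78, 1.76 and 23.9 CPM, against 16, 54.3, 11.3 and 10.6 CPM after PFSUV-IMQ. Both genes varied more within a group than between the groups, since the highest saline tumor exceeded the lowest 8.62-fold for S100a8 and 13.6-fold for S100a9, against ratios of the group means of 1.97 and 2.25. The group means were 7.45 ± 6.76 and 14.7 ± 12.3 CPM for S100a8 and 10.3 ± 10.3 and 23.1 ± 21 CPM for S100a9, saline first (SD, n = 4 each). The log2 change was 0.98 for S100a8 (standard error 0.73, 95% interval -0.66 to 2.62, edgeR adjusted p = 0.672) and 1.17 for S100a9 (standard error 0.83, interval -0.68 to 3.03, edgeR adjusted p = 0.651). Neither gene separated the groups, and the intervals reach from below 0 to above 2 on the log2 scale. Without PFSUV-IMQ replicate 2 the estimates dropped to 0.19 and 0.29. In proportion to each other, S100a8 was at 0.609 to 0.813 of the S100a9 level in the PFSUV-IMQ tumors and at 0.68 to 1.07 in the saline tumors.

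Neither receptor gene was called. Csf3r (chromosome 4, 126024550 to 126044440) encodes the receptor for granulocyte colony-stimulating factor and stood at 10.7, 9.42, 15.9 and 15.7 CPM in saline replicates 1, 3, 4 and 5. After PFSUV-IMQ it stood at 15.4, 37.7, 9.15 and 10.6 CPM in replicates 1 to 4, so 3 of the 4 treated tumors were within or below the saline range. The log2 change was 0.49 (standard error 0.44, interval -0.49 to 1.47, edgeR adjusted p = 0.743), and without PFSUV-IMQ replicate 2 its sign turned, to -0.16. Cxcr2 (chromosome 1, 74153989 to 74161246), the receptor of the ELR chemokines, was sparse, with 20 to 32 counts per saline tumor and 21 to 81 per PFSUV-IMQ tumor. Its levels were 1.15, 0.703, 1.16 and 1.74 CPM in saline and 2.21, 5.66, 1.17 and 1.6 CPM in treated tumors. The treated tumors with replicate numbers 3 and 4 lay inside the saline range and the other 2 above it. Its log2 change was 1.16 (standard error 0.52, interval -0.01 to 2.32, edgeR adjusted p = 0.388), and 0.47 without PFSUV-IMQ replicate 2.

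Retnlg and Mmp9 encode secreted products of mature neutrophils. Retnlg (chromosome 16, 48872621 to 48874496), a resistin-like cytokine gene found in mouse granulocytes and bone marrow, had the largest estimate of the 9 tested genes. It stood at 1.57, 0.211, 0.043 and 1.25 CPM in saline replicates 1, 3, 4 and 5 (34, 6, 1 and 23 counts) and at 2.04, 11, 2.06 and 1.87 CPM in PFSUV-IMQ replicates 1 to 4 (37, 157, 37 and 34 counts). The groups did not overlap, but the lowest treated tumor and the highest saline tumor were separated by only 1.87 against 1.57 CPM. Its log2 change was 2.48 (standard error 0.95, interval 0.36 to 4.60, unadjusted p = 0.0266 and edgeR adjusted p = 0.291), and 1.38 without PFSUV-IMQ replicate 2. Mmp9 (chromosome 2, 164940780 to 164955850), the gelatinase that neutrophils release from their tertiary granules and that macrophages and tumor cells can also make, followed a different order of tumors. It was highest in saline replicate 4, at 11.2 CPM, against 1.89, 2.21 and 3.04 CPM in saline replicates 1, 3 and 5. After PFSUV-IMQ it stood at 1.32, 6.99, 5.80 and 6.62 CPM in replicates 1 to 4. The log2 change of 0.18 (standard error 0.66, interval -1.30 to 1.65, edgeR adjusted p = 0.956) changed sign in 3 of the 8 fits without a tumor.

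**Figure D2:**
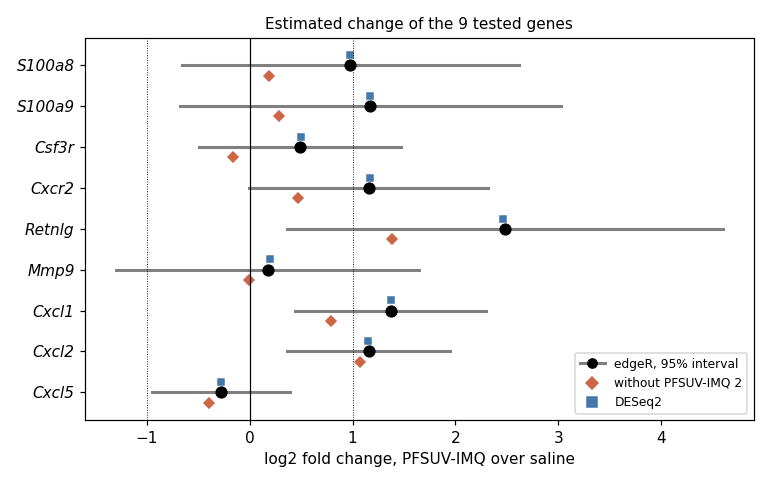
Log2 fold change of PFSUV-IMQ over saline (horizontal axis) for the 9 tested genes, with edgeR's estimate (black) and its 95% interval (gray bar), the estimate without PFSUV-IMQ replicate 2 (orange diamonds) and the DESeq2 estimate (blue squares), and dotted lines at -1 and 1. The intervals of Retnlg, Cxcl1 and Cxcl2 lie above 0, and leaving out replicate 2 moved Cxcl2 least of these, from 1.16 to 1.07.

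Among the signals, Cxcl1 exceeded the saline range in 3 of 4 treated tumors, Cxcl2 in 4 and Cxcl5, from the same gene cluster, in none, although edgeR called none of them. The plot of estimates with their intervals sets these genes beside the neutrophil genes. Cxcl1 (chromosome 5, 90891241 to 90893115) encodes the mouse chemokine KC and was the most abundant signal, with 538 to 950 counts per saline tumor. It stood at 31.4, 33.4, 23.1 and 43.6 CPM in saline replicates 1, 3, 4 and 5 and at 38.4, 167, 63.3 and 71.1 CPM in PFSUV-IMQ replicates 1 to 4. Treated replicate 1 lay within the saline range and the other 3 above it. The means were 32.9 ± 8.42 and 85.0 ± 56.4 CPM (SD, n = 4 each), which gives a log2 change of 1.37 (standard error 0.41, interval 0.44 to 2.30, unadjusted p = 0.00835 and edgeR adjusted p = 0.154). Without PFSUV-IMQ replicate 2 the estimate was 0.79. Cxcl2 (chromosome 5, 90903871 to 90905938), which encodes MIP-2, lay above the saline range in each treated tumor, with 6.41, 8.68, 2.96 and 11.1 CPM in saline replicates 1, 3, 4 and 5 against 16.4, 18.4, 12.8 and 17.2 CPM in PFSUV-IMQ replicates 1 to 4. The means were 7.28 ± 3.45 and 16.2 ± 2.44 CPM (SD, n = 4 each). Its log2 change was 1.16 (standard error 0.35, interval 0.36 to 1.95, unadjusted p = 0.00907 and edgeR adjusted p = 0.159), between 0.89 and 1.43 over the fits without 1 tumor. DESeq2 called both genes, with adjusted p = 0.0332 for Cxcl1 and 0.0494 for Cxcl2, so their calls depended on the test.

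Cxcl5 (chromosome 5, 90759360 to 90761624), which encodes the chemokine LIX, stood at 2.81, 3.79, 3.05 and 5.97 CPM in saline replicates 1, 3, 4 and 5 and at 2.65, 3.84, 3.12 and 3.25 CPM in PFSUV-IMQ replicates 1 to 4. All treated tumors but the lowest lay within the saline range. The log2 change was -0.28 (standard error 0.30, interval -0.95 to 0.39, edgeR adjusted p = 0.789). Csf3 (chromosome 11, 98701263 to 98703629) was at the edge of detection, with 2, 1, 0 and 7 counts in saline replicates 1, 3, 4 and 5 and 3, 7, 5 and 7 counts in PFSUV-IMQ replicates 1 to 4. Since 3 of the saline tumors and 1 treated tumor were at or under 3 counts, no fold is given. On the log2 CPM scale with a prior count of 2 the means were -2.41 ± 0.98 and -1.28 ± 0.50 (SD, n = 4 each, p = 0.0857 by a two-sided exact permutation test, whose smallest possible p is 0.0286).

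The ligands were compared by their ratio within each tumor, in which library size cancels apart from the prior count of 2. These 3 pairs were chosen after the values were seen. Their p-values, also as adjusted over the 3, therefore describe the separation and do not allow for that choice. The pairs with Cxcl5 also share that gene. The log2 ratio of Cxcl1 to Cxcl5 was 2.85 to 3.44 after saline against 3.81 to 5.41 in treated tumors, a difference of 1.41 (two-sided exact permutation p = 0.0286, the smallest possible, and 0.0429 adjusted over the 3 pairs). That of Cxcl2 to Cxcl5 was -0.04 to 1.17 after saline and 2.0 to 2.59 after PFSUV-IMQ, a difference of 1.5 (exact permutation p = 0.0286, adjusted 0.0429). In both ratios all 4 treated tumors lay above all 4 saline tumors. The ratio of Cxcl1 to Cxcl2 had means of 2.27 ± 0.46 after saline and 2.18 ± 0.80 after PFSUV-IMQ (SD, n = 4 each), a difference of -0.09 (exact permutation p = 0.971), and its groups overlapped.

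**Figure D3:**
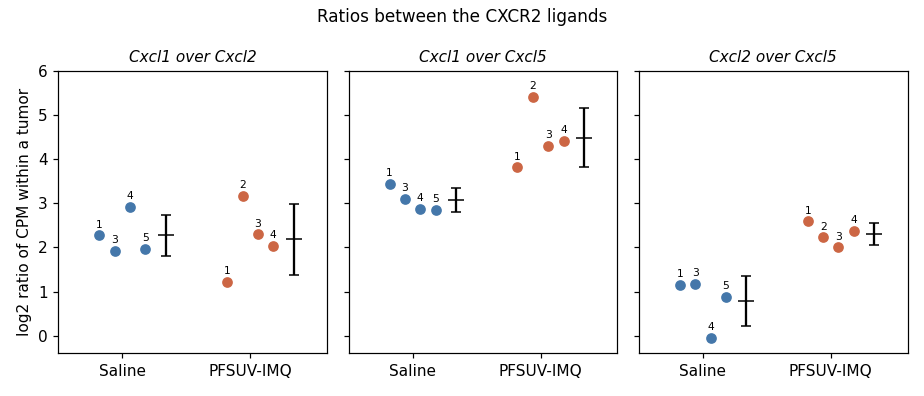
Log2 ratio of normalized CPM within a tumor (vertical axis, shared) for the 3 pairs of CXCR2 ligands in the 4 saline tumors (blue) and the 4 PFSUV-IMQ tumors (orange), each point labeled with its replicate number, with group mean and SD as bars. The treated tumors lie above the saline tumors for Cxcl1 over Cxcl5 and Cxcl2 over Cxcl5, while for Cxcl1 over Cxcl2 they span 1.22 to 3.17 around the saline values of 1.93 to 2.92.

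RefSeq's promoter windows on GRCm38.p6 were matched for 7 of the 10 genes (not for Cxcl5, Mmp9 or Csf3). The upstream bases of Cxcl1 and Cxcl2 are shown because these genes had the 2 smallest unadjusted p values of the 10. Capitals mark matches to the κB pattern GGNNTTTCC on either strand, where N is any base. Each line is the 250 bases before the start site as RefSeq places it, 5′ to 3′ on the plus strand, at chr5:90890995-90891244 for Cxcl1 and chr5:90903649-90903898 for Cxcl2.
Cxcl1: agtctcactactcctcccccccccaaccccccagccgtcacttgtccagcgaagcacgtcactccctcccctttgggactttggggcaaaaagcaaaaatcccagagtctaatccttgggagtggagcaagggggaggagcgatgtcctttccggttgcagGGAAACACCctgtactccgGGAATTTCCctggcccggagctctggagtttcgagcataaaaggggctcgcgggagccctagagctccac
Cxcl2: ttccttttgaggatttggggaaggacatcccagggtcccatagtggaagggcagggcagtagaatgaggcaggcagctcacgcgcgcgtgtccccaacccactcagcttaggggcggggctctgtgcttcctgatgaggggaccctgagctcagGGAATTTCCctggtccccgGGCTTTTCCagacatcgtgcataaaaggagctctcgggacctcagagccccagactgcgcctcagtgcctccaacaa
The longest run of letters common to both windows is the 14 bases GGGAATTTCCCTGG, which hold 1 of the capital stretches and lie from 71 to 58 bases before the start site in Cxcl1 and from 97 to 84 in Cxcl2. No other of the 32851 windows of this length holds that run on either strand. The κB pattern occurs in 4.93% of all windows and, of the 7 matched genes, in Cxcl1 and Cxcl2. An interferon-stimulated response element core written as TTCNNTTTC was found in none of the 7 windows and in 7.13% of all, an AP-1 pattern TGANTCA in none and in 6.75% of all, and a C/EBP pattern TTNNGCAA in those of S100a9 and Retnlg and in 9.56% of all. The patterns were chosen with the sequences in view. A match describes letters only, and the data hold no measurement of binding.

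Per length, the ranking of the genes differed from that by CPM. Divided by the annotated exon bases, the saline means ran from S100a9 (19.7 ± 19.8 CPM per kb), Cxcl1 (17.5 ± 4.49) and S100a8 (10.7 ± 9.73) through Csf3r (3.59 ± 0.937), Cxcl2 (3.52 ± 1.67), Cxcl5 (2.1 ± 0.773), Retnlg (1.29 ± 1.27) and Mmp9 (1.29 ± 1.25) to Cxcr2 (0.39 ± 0.139) and Csf3 (0.0898 ± 0.122), as level means ± SD of 4 tumors. Of neighbors in this order, only Cxcr2 and Csf3 differed by more than the larger of their SDs. The exon bases merge the exons of all annotated transcripts. For Cxcl1 and Cxcl2 they form 1 block of 1875 and 2068 bases that spans the whole gene. The levels per kb of these genes, and their ranks, would be too low if the RNA counted was shorter. After PFSUV-IMQ the Cxcl1 level was 45.3 ± 30.1 CPM per kb and that of S100a9 44.2 ± 40.1. No annotated exon of another gene overlaps those of the 10.

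Other genes of the axis were read from 8 short lists. Of their 76 genes 61 were tested, and 3 were called higher, against 2.26% of all tested genes, and none lower. At an unadjusted p under 0.05, 20 of the 61 were higher, against 8.34% of all tested genes, and 1 was lower, against 4.65%. Their median log2 change was 0.39, against -0.03 over all tested genes. Among the other ELR chemokines and their binding proteins, 3 of 5 were tested and none was called. Cxcl3, a further CXCR2 ligand of the cluster, stood at 3.18 to 6.99 CPM in saline and 7.31 to 16.2 CPM in treated tumors, groups that did not overlap, with a log2 change of 0.94 (standard error 0.34, edgeR adjusted p = 0.262). Ackr1, the atypical receptor of venular endothelium and red cells that takes up ELR chemokines, went from 1.07 ± 0.694 to 3.96 ± 2.53 CPM. Its log2 change was 1.88 (standard error 0.55, edgeR adjusted p = 0.14, DESeq2 adjusted p = 0.0137). The remaining tested gene of that list, Ppbp, which platelets carry, had a log2 change of 0.06. Of 6 other colony-stimulating factor and receptor genes none was called. Csf1, the macrophage growth factor, passed the adjusted p but not the limit of 1 on the log2 scale and went from 105 ± 13.4 to 180 ± 23.9 CPM with groups that did not overlap (log2 change 0.77, standard error 0.17, edgeR adjusted p = 0.0428). Csf1r, its receptor and a macrophage marker, had a log2 change of -0.75 (edgeR adjusted p = 0.388).

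Of the cytokines and receptors known to induce these ligands, 8 of the 10 listed were tested, Il36g being unmatched and Il17a at 0 counts in all 8 tumors. Il6 was the 1 called higher, at 0.567 ± 0.228 CPM in saline and 3.52 ± 2.52 CPM in treated tumors, a log2 change of 2.61 (standard error 0.54, edgeR adjusted p = 0.0374), and 1 of the 8 fits without a tumor still called it (log2 change 2.0, edgeR adjusted p = 0.0567 without PFSUV-IMQ replicate 2). Among 9 adhesion genes of leukocyte recruitment, none was called and 4 had an unadjusted p under 0.05, all higher. Sele, the endothelial E-selectin on which neutrophils roll, had a log2 change of 2.05 (standard error 0.67, edgeR adjusted p = 0.196, DESeq2 adjusted p = 0.0386), and 1.19 without PFSUV-IMQ replicate 2. Of 8 other metalloproteinase and inhibitor genes none was called. Mmp13, collagenase 3, went from 37.7 ± 18.5 to 131 ± 66.5 CPM (log2 change 1.79, standard error 0.43, edgeR adjusted p = 0.0665, DESeq2 adjusted p = 0.00217). Timp1, an inhibitor of Mmp9, went from 133 ± 33.7 to 268 ± 64.5 CPM (log2 change 1.01, standard error 0.24, edgeR adjusted p = 0.0699, DESeq2 adjusted p = 0.00906). In both the groups did not overlap. Of the relatives of calprotectin and resistin, 8 of 10 were tested and none was called, the largest estimates being 0.41 for S100a10 and -0.33 for Retnla.

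Further neutrophil genes gave a mixed picture. Of 10 granule genes, 7 were tested and none was called, with 5 estimates above 0, 2 below and a median log2 change of 0.39. Of 18 genes for surface receptors and other products of mature neutrophils, 12 were tested and 2 were called higher. Of the 12 estimates 9 were above 0 and 3 below, with a median of 0.76. Called were Hdc, the histamine-forming enzyme of granulocytes and mast cells, from 3.49 ± 1.04 to 16.3 ± 9.65 CPM (log2 change 2.22, standard error 0.41, edgeR adjusted p = 0.0212), and Fpr2, a formyl peptide receptor of neutrophils and macrophages, from 7.52 ± 2.02 to 26.5 ± 16.5 CPM (log2 change 1.81, standard error 0.39, edgeR adjusted p = 0.0435). Both kept their calls without PFSUV-IMQ replicate 2, with log2 changes of 1.70 and 1.26, and among the 8 fits without a tumor 5 called Hdc and 3 called Fpr2. Lcn2, a granule protein that hepatocytes also secrete in the acute phase, stood at 29.9 to 158 CPM in saline and 197 to 942 CPM in treated tumors. It had a log2 change of 2.44 (standard error 0.64, edgeR adjusted p = 0.0983, DESeq2 adjusted p = 0.00142), and 1.76 without PFSUV-IMQ replicate 2. Mmp8, neutrophil collagenase, had one of 1.31 (standard error 0.57, edgeR adjusted p = 0.362), and 0.65 without PFSUV-IMQ replicate 2. G0s2, of the 18 genes, went the other way, from 9.79 ± 3.15 to 4.86 ± 1.43 CPM, with groups that overlapped. Its log2 change was -1.01 (standard error 0.30, edgeR adjusted p = 0.144, DESeq2 adjusted p = 0.0375). Ly6g, the surface marker that defines mouse neutrophils, was too sparse to test and was at 0 counts in saline replicates 1 and 4, with 0 to 0.489 CPM in saline and 0.0558 to 1.26 CPM in treated tumors.

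**Figure D4:**
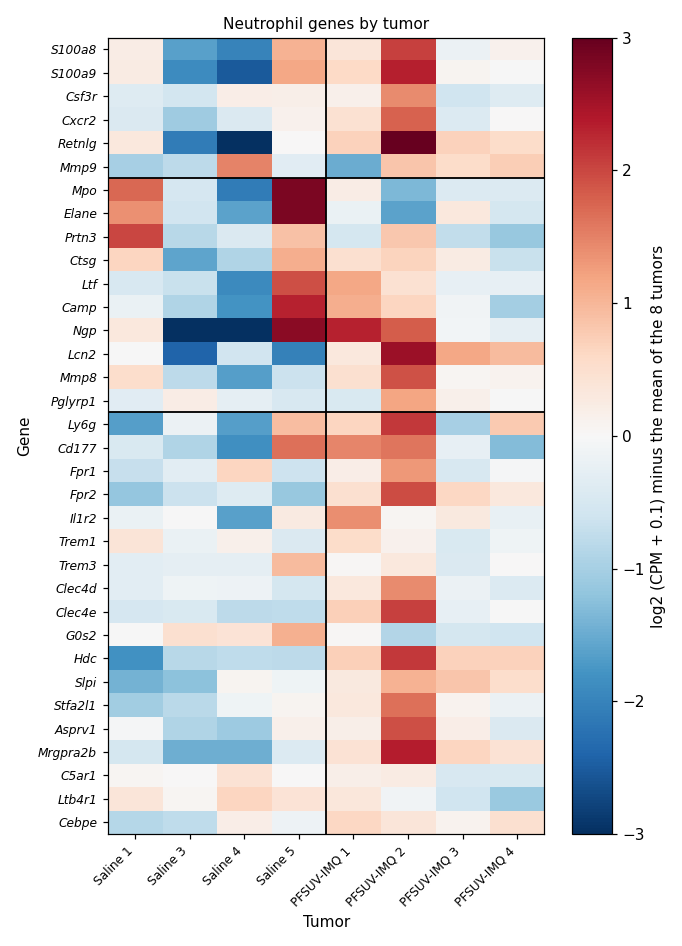
Log2 of CPM plus 0.1, minus the mean of the 8 tumors (color scale, cut at -3 and 3), for 34 neutrophil genes (rows: the 6 neutrophil genes followed here, 10 granule genes, 18 surface and other genes) in 8 tumors (columns). PFSUV-IMQ replicate 2 was the highest tumor for 18 of the 34 genes and saline replicate 5 for 9, of which 6 are granule genes.

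Across this panel single tumors stood out, as the color map of the 34 genes by tumor shows. PFSUV-IMQ replicate 2 was highest for 5 of the 6 neutrophil genes followed here, 3 of the 10 granule genes and 10 of the 18 others. The share of all tested genes highest in this tumor among the 8 was not computed. Among the 4 treated tumors it was highest for all 6 neutrophil genes followed here. The same held for 13 of the 19 tested granule and other genes, against 34.8% of all tested genes. Of 7 genes listed as neutrophil markers (Ly6g, S100a8, S100a9, Csf3r, Cxcr2, Retnlg and Mpo), 4 to 7 were above 3 counts in each saline tumor and 6 or 7 in each treated tumor. All but Ly6g and Mpo are among the genes followed here. Mpo is transcribed largely by precursors in the bone marrow, and PFSUV-IMQ replicate 2 had 3 counts of it. The summed level of the 7 was 16.2 to 65.0 CPM in saline and 31.2, 34.3, 47.0 and 143 CPM in treated tumors, so 3 of the treated tumors lay within the saline range.

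Markers of other cell types were summed as well. The 10 monocyte and macrophage markers gave 1240.2 to 2010.0 CPM in saline and 884 to 1780.4 CPM in treated tumors, and 1 of them was called, Vsig4 of resident macrophages, lower with a log2 change of -1.62 (standard error 0.35, edgeR adjusted p = 0.0453, called in 1 of the 8 fits without a tumor). Of these 10 markers 3 had estimates above 0 and 7 below. Ly6c2, of inflammatory monocytes, stood at 3.36 to 7.65 CPM in saline and 9.43 to 34.8 CPM in treated tumors (log2 change 1.88, standard error 0.44, edgeR adjusted p = 0.0633, DESeq2 adjusted p = 0.00101), and Cd14 had a log2 change of 0.63 (standard error 0.17, edgeR adjusted p = 0.104), with groups that did not overlap in either. Other markers of this list went the opposite way, with groups that overlapped. Ccr2 had a log2 change of -1.23 (standard error 0.32, edgeR adjusted p = 0.089, DESeq2 adjusted p = 0.0117). Clec4f had one of -0.96 (standard error 0.27, edgeR adjusted p = 0.122, DESeq2 adjusted p = 0.0335). None was called among the 8 hepatocyte, 5 endothelial, 4 fibroblast, 5 T and NK cell, 3 B cell, 3 mast cell and basophil, 5 tumor, 4 platelet or 4 erythroid markers, and none of the 3 eosinophil markers had enough counts to be tested. Sums over the 4 fibroblast markers were 1693.7 to 2397.9 CPM in saline and 1991.5 to 5817.1 CPM in treated tumors, over the 5 endothelial markers 107 to 179 and 90.3 to 143 CPM, and over the 3 B cell markers 1.29 to 5.97 and 2.23 to 18.4 CPM, highest in PFSUV-IMQ replicate 2. The remaining sums, saline first, were 44.9 to 109 and 54.4 to 138 CPM for T and NK cells, 125 to 283 and 50.8 to 134 CPM for erythroid cells, 15.2 to 31.5 and 16.7 to 35.7 CPM for platelets, 8.16 to 25.4 and 7.89 to 21.5 CPM for mast cells and basophils, 0.323 to 1.16 and 0.14 to 1.1 CPM for eosinophils and 1272.2 to 2131.7 and 1006.1 to 2057.0 CPM for tumor cells. The part of other cell types in the levels of the 10 genes was not tested.

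The genes whose levels over the 8 tumors were most like those of each pair were sought among all tested genes, with each group's mean subtracted and Pearson's r on log2 CPM as the measure of likeness, given as a description. For the mean of Cxcl1 and Cxcl2 they were Cebpb, a transcription factor of acute inflammation (r = 0.973), the metallothionein Mt2 (0.972), the kinase Pim3 (0.950), the Notch ligand Dll1 (0.947) and Mlkl, the effector of necroptosis (0.943). In each of these 5 the treated tumors lay above the saline tumors, as with Cebpb at 38.7 to 86.1 CPM in saline and 115 to 221 CPM in treated tumors. For the mean of S100a8 and S100a9 they were Ubr4, Tmem184b, Kcnj2, 2810429I04Rik and Htt, with r from 0.924 to 0.951, and none of these 5 was among the neutrophil genes listed here. The treated tumors lay above the saline tumors in Ubr4 and Tmem184b too (Tmem184b log2 change 1.15, edgeR adjusted p = 0.00551). In 2810429I04Rik they lay below, and in Kcnj2 and Htt the groups overlapped. Over all tested genes 6.00% had all treated tumors above and 3.28% all below. The points share PFSUV-IMQ replicate 2 and saline replicate 4, the highest and the lowest tumors of their groups for both pairs.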

How the data were processed

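RNA was sequenced from 8 mouse tumors. Deposited were the authors' raw read counts for each gene, which entered every test, and a table of signal values that the authors made by dividing each tumor's counts by 1 DESeq2 size factor, used here for gene symbols and for an added alternative. The methods name TopHat and HTSeq, whereas the submitters' processing notes name Trimmomatic 0.38, HISAT2 2.1.0 and featureCounts 2.0.0. Which of these made the counts, and the genome build, are not given in the sources used here. Coordinates and exon lengths are those of GENCODE M21 on GRCm38, which holds all 55536 identifiers. Whether counting used strand is likewise not given.

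Counts were fitted in R 4.3.3 with edgeR 4.0.16 (TMM, default filter on low counts, quasi-likelihood test, Benjamini-Hochberg over 15998 genes), and 95% intervals used 9.53 degrees of freedom. DESeq2 1.42.0, other normalizations and filters, glmTreat, a replicate block and each tumor left out in turn were alternatives. The fits were tested on simulated data. The members, lists and tests were chosen with earlier results of these data known. Named were all 10 members, the called genes of each list or else its 2 largest estimates, and the 5 genes most like each pair. Ppbp, Ly6g, G0s2, Il36g, Il17a, Ly6c2, Cd14, Ccr2, Clec4f, Mpo, Elane, Prtn3, Ctsg and Ngp were named outside this rule with their values seen. One gene that the rule names is not reported here. Of the 76 further list genes, 75 were matched. Replicates of a group differed by more than sampling noise (chi-square per degree of freedom 29 to 291). Depth was 16883911 to 27687756 counts.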

Additional observations from a re-analysis of the deposited data

Results flagged for a closer look

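Single tumors stood far from the other 3 of their group in 4 of the 20 sets of 4 values examined, 10 genes in 2 groups. The limit used marks about 1 set in 20 only if values are normally distributed and sets independent. CPM need not be normally distributed, and the sets of S100a8, S100a9 and Retnlg share the same tumors. The count of 4 therefore cannot be set against chance. In PFSUV-IMQ replicate 2, S100a8 was 33.0 CPM against 6.97 to 10.1 CPM in the other treated tumors, S100a9 was 54.3 CPM against 10.6 to 16 CPM, and Retnlg was 11 CPM against 1.87 to 2.06 CPM. In saline replicate 4, Mmp9 was 11.2 CPM against 1.89 to 3.04 CPM in the other saline tumors. The gap to the nearest tumor was 0.880, 0.877, 0.979 and 0.876 of the group's range. These tumors also had the highest summed hepatocyte markers of their groups, 37275.7 and 34645.0 CPM, whose part in these values was not tested.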

How the results depend on the processing

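The Wald test of DESeq2 called 2 of the neutrophil signals, and no other alternative called any, although Csf3 was tested only there and without the filter on low counts. No alternative called any of the 6 neutrophil genes, of which 5 were tested at 10 or more counts in every tumor. Over all genes, 394 were called, against 751 by DESeq2, 120 by glmTreat, 683 with a replicate block, and 213 to 400 without 1 tumor (213, 225 and 248 without saline replicate 1, 3 or 4 and 251 without PFSUV-IMQ replicate 4). The further list genes called were 3, against 6 without a filter on low counts, 14 by DESeq2, 0 by glmTreat, 5 with a replicate block, and 0 to 3 with a tumor left out (0 without saline replicate 1, 3 or 4, 1 without saline replicate 5 or PFSUV-IMQ replicate 3). Signs turned for Csf3r with the replicate block (-0.03) and without PFSUV-IMQ replicate 2 (-0.16, range without 1 tumor -0.16 to 0.72), and for Mmp9 without saline replicate 1 (-0.08), saline replicate 3 (-0.06) or PFSUV-IMQ replicate 2 (-0.01, range -0.08 to 1.12). With the replicate block, PFSUV-IMQ replicate 2 and saline replicate 5 have no partner of the same number and do not enter the estimate. The turns of Csf3r are therefore not independent of each other. Replicate numbers 1, 3 and 4 occur in both groups without a stated pairing. Deviations of same-numbered tumors correlated at 0.294, -0.268 and -0.316, too few values to decide whether the numbers pair the tumors. Of 143 values of the 9 tested genes under alternatives, 136 kept their sign and side of the threshold, 2 became called and 5 turned sign. The difference for Csf3 was 1.13 with a prior count of 2 and 1.86 with 0.5 (exact permutation p = 0.0857 for both). The size factors of the authors' table, an alternative chosen after the data were seen, called 392 genes. The cause of these shifts was not tested. Depth limited Csf3, Ly6g and Cxcr2, with at most 7, 18 and 81 counts per tumor.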

Other observations

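The azurophil granule genes Mpo, Elane, Prtn3 and Ctsg are transcribed by neutrophil precursors in the bone marrow and largely not by mature neutrophils. They were chosen from the granule list after their values were seen, and none was called. Mpo, myeloperoxidase, stood at 2.53, 0.457, 0.0859 and 5.54 CPM in saline replicates 1, 3, 4 and 5 and at 0.828, 0.21, 0.502 and 0.496 CPM in PFSUV-IMQ replicates 1 to 4. Elane, neutrophil elastase, was highest in the same 2 saline tumors, at 0.691 and 2.06 CPM, against 0 to 0.279 CPM in the other 6. Neither had enough counts for the edgeR test, and DESeq2 gave log2 fold changes of -2.08 (adjusted p = 0.241) and -2.34 (adjusted p = 0.416). PFSUV-IMQ replicate 2, which had the highest S100a8, S100a9, Csf3r, Cxcr2 and Retnlg, had 3 counts of Mpo (0.21 CPM) and 0 of Elane, but 28 of Prtn3 (1.96 CPM) and 10 of Ctsg (0.699 CPM), the highest of its group for the latter genes. Prtn3, proteinase 3, had a log2 change of -1.11 (edgeR adjusted p = 0.61) and Ctsg, cathepsin G, one of 0.12 (edgeR adjusted p = 0.97). Ngp, a secondary granule gene, ranged from 0.0351 and 0.043 CPM in saline replicates 3 and 4 to 9.39 CPM in saline replicate 5, and its log2 fold change was 0.39 (edgeR adjusted p = 0.948).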
